A study of Microtus ochrogaster with 23 samples.

Results

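In the dentate gyrus (DG) of 23 prairie voles, 473 CpG cytosines had an intermediate methylation level in every animal measured. They were selected on the measured levels. A cytosine off the X chromosome was taken when it had at least 10 reads in each of the 23 animals, when the mean of the 23 levels was between 35% and 65%, and when the level of every animal was between 20% and 80%. Of the 4051749 cytosines read in any animal, 433010 off the X chromosome had at least 10 reads in all animals, 9660 of these had a mean level between 35% and 65%, and 473 also met the limits on every animal. They are called half-methylated cytosines here, after the rule that chose them. Their level and their range over the animals are therefore descriptions and were not tested.

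The animals were adult wild-type voles from a laboratory colony. Virgin males that attacked an unfamiliar pup formed the “Attacker” group (n = 6) and virgin males that cared for it the “Parental” group (n = 6). Males that lived with their mate and their own litter formed the “Father” group (n = 5), and females with a mate and a litter formed the “Mother” group (n = 6), so that “Father” and “Mother” differ in sex. Pups were shown to all animals, but “Attacker” males were parted from theirs at the first attack, so that exposure differed between the groups. Each library came from 1 animal, from punches of the DG that hold several cell types. DNA methylation was measured by reduced-representation bisulfite sequencing (RRBS), which reads DNA next to the cutting sites of the enzyme MspI. Levels are the percentage of reads that were methylated at a cytosine, and both strands of a CpG have values of their own.

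A cytosine in the DNA of a single chromosome is either methylated or not. An intermediate level in a tissue can therefore reflect a mixture. Examples are mixtures of alleles as at imprinted genes, of cells of different types, or of copies of a sequence that cannot be told apart when reads are aligned. Imprinted genes carry methylation on the allele from one parent only, usually over a run of neighboring CpGs on both strands.

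Libraries held between 64896224 and 129376223 calls, with 1 call for each CpG in a read, and the median depth of a cytosine with reads was between 19 and 43. On the X chromosome, the mean level over 1470 cytosines was 10.1% to 12.4% in the 17 males and 18.9% to 22.5% in the 6 females, so that no library stood against its sex label.

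Levels between the extremes were uncommon in these data. Of the 433010 well-covered cytosines (at least 10 reads in each animal), 89.4% had a mean level under 10% and 0.939% had a mean level over 90%. The 9660 cytosines with a mean between 35% and 65% made up 2.23%, and the 473 half-methylated cytosines 0.109%. Within the limits, the half-methylated cytosines had a mean level of 48.6% ± 6.84 (SD over the 473 cytosines), with 285 below 50% and 188 above. Most of the cytosines with an intermediate mean failed the limits on single animals. Of the 9187 that failed, 6714 had an animal below 20% and another above 80%, 1418 had an animal below 20% alone and 1055 had an animal above 80% alone.

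**Figure D1:**
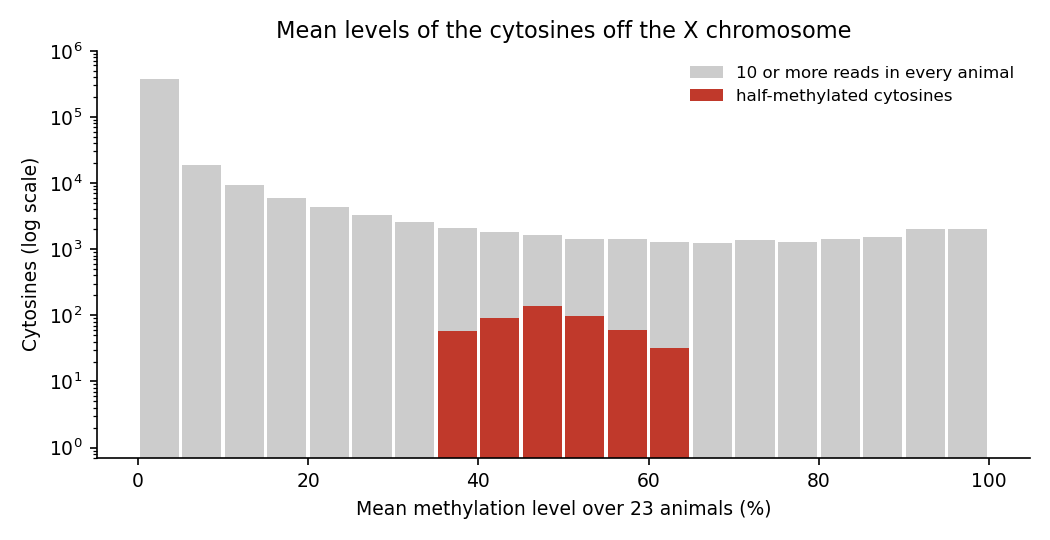
Number of cytosines (log scale) by mean methylation level over the 23 animals in steps of 5 points, for all well-covered cytosines off the X chromosome (grey) and for the half-methylated cytosines (red). Most cytosines are under 10%, and the 473 half-methylated cytosines are a minority of every step between 35% and 65%.

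The members at the limits were close to the cytosines just outside them. The last cytosine kept by the lower limit on animals, at position 14688831 of JH996433.1, had a lowest animal at exactly 20%, and the nearest one left out, at position 5655854 of JH996434.1, had a lowest animal at 19.9%. For the mean, the cytosine at position 6696 of JH996631.1 was inside at 35.01% and that at position 10660468 of chromosome 22 was outside at 34.98%. At the upper limit of the mean, the cytosine at position 79953879 of chromosome 4 was inside at 64.9% and that at position 39644882 of chromosome 19 was outside at 65.4%.

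The animals were not at equal levels at these cytosines. The SD over the 23 animals had a median of 11.3 percentage points and ranged from 2.59 to 18.3. The distance from the lowest to the highest animal had a median of 42.6 points. The variance over the animals divided by that of binomial counts had a median of 16.5 and a minimum of 2.24, where 1 is the value for independent reads with no difference between animals. Reads copied by PCR are not independent molecules and the levels are those the rule used, so this ratio is a description. The 9187 cytosines that failed the limits had a median ratio of 14.04 and a median SD of 23.8 points. For the same spread the ratio is larger at greater depth, so the 2 ratios cannot be compared directly. The median depth was 356 reads at the members and 68 at those that failed. Among the members, the median ratio was 210 at 1000 reads or more and 13.5 at fewer.

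The half-methylated cytosines were read far more deeply than the others. Their median depth over the animals was 356 reads in the middle of the list, with a range of 38 to 41532. It was 68 at the 9187 cytosines that failed the limits on animals and 63 over all 433010 cytosines. A depth of 1000 reads or more was found at 114 half-methylated cytosines (24.1%), compared with 0.381% of those that failed and 0.269% of all. The share of intermediate cytosines that met the limits was higher in each deeper class. It was 0.146% at 30 to 59 reads, 5.89% at 100 to 199 reads, 28.5% at 200 to 499 reads and 76.5% at 1000 reads or more. Counting error is larger with fewer reads, and its part in these shares was not tested.

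**Figure D2:**
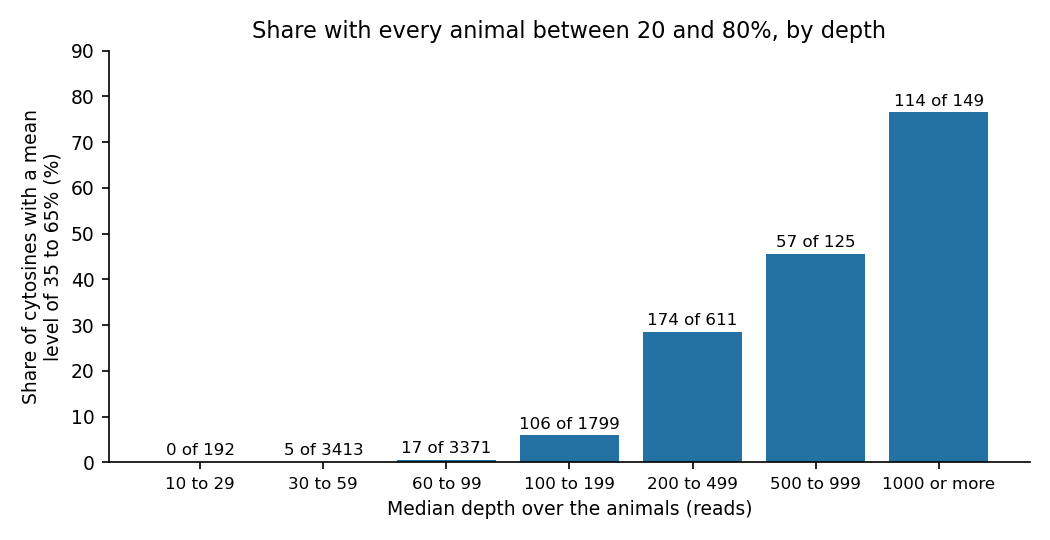
Share of cytosines with a mean level of 35% to 65% for which every animal was between 20% and 80% (y axis, percent), by the median depth over the animals (x axis, reads). The counts above the bars give the half-methylated cytosines out of the cytosines with an intermediate mean, from 0 of 192 in the shallowest class to 114 of 149 in the deepest.

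The half-methylated cytosines were spread over 97 sequences of the assembly, of which 71 were contigs not placed on a chromosome. The unplaced contigs held 205 of them (43.3%), compared with 30.04% of the cytosines that failed the limits and 27.1% of all cytosines. Of the 268 on placed chromosomes, 49.3% were inside the span of a gene, close to the 49.7% of those that failed and below the 65.8% of all. The median number of other listed cytosines within 50 bp was 4 at the half-methylated cytosines, 3 at those that failed and 14 over all. It was 15 at the 114 half-methylated cytosines with 1000 reads or more and 3 at the other 359. Of the genes that held members, Kmt2a, which encodes a histone H3 lysine 4 methyltransferase, had 11 and no other had more than 4.

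Most half-methylated cytosines stood alone. Members of one sequence were joined into a cluster when the gap was at most 500 bp, which gave 337 clusters. Of these, 287 were single cytosines and held 60.7% of the members, 27 were pairs, 13 had 3 or 4 members and 10 had 5 or more. The 10 clusters with 5 or more members held 87 half-methylated cytosines (18.4%). Another member was within 100 bp at 38.7% of the members, and any other well-covered cytosine at 85.4%. In the longer list of the 9187 cytosines that failed the limits, 55.0% had another of that list within 100 bp. Between 100 and 300 bp no further member gained a neighbor. A sequencing read spanned 100 bp.

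Depth and clustering went together. The median depth was 235 reads at the single cytosines, 463 in clusters of 2 to 4 and 4590 in the clusters of 5 or more. Of the 87 members in the 10 large clusters, 75 had a depth of 1000 reads or more and 71 were on unplaced contigs. Among the 114 members with 1000 reads or more, 71.1% were on unplaced contigs and 13.2% stood alone. Among the other 359, 34.5% were on unplaced contigs and 75.8% stood alone. When the members under 1000 reads were taken by themselves, there was 1 cluster of 5 or more, with 1.393% of them. How many copies of these sequences the vole genome holds was not tested.

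The largest cluster lay on the unplaced contig JH996676.1, between positions 68542 and 69110, where 14 of the 26 well-covered cytosines were half-methylated at a median depth of 23302 reads. Its mean level was 56.3% ± 7.32 (SD, n = 23 animals). It was 46.4% to 64.5% (median 59.6%) in “Attacker”, 41.6% to 63.7% (median 54.6%) in “Parental” and 50.8% to 60.8% (median 55.1%) in “Mother” voles. The 5 “Father” voles were at 47.0%, 50.5%, 60.8%, 64.4% and 71.7%. All 4 groups overlapped. Beside its members, 9 cytosines 1 bp from a member were not half-methylated, and all 9 had a mean level between 8.91% and 12.8%.

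The second cluster was inside Kmt2a, on chromosome 5 between positions 38761650 and 38761715. Here 11 of 14 well-covered cytosines in 66 bp were half-methylated, at a median depth of 4534 reads. Its mean level was 46.2% ± 9.63 (SD, n = 23 animals). It was 36.2% to 67.0% (median 47.8%) in “Attacker”, 34.5% to 56.2% (median 45.6%) in “Parental” and 36.1% to 46.1% (median 39.9%) in “Mother” voles. The 5 “Father” voles were at 37.7%, 40.4%, 45.4%, 60.8% and 67.4%, so that the groups overlapped again. The other 3 cytosines were between 34.7% and 74.5%.

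The contig JH996631.1 held 3 of the 10 clusters. They had 10 of 31 well-covered cytosines between 7339 and 7982 at a mean of 45.4%, 9 of 14 between 6620 and 6766 at 42.7%, and 8 of 18 between 13611 and 14071 at 42.3%. Median depths were 10069, 7485 and 3560 reads. Cytosines between the members were not all intermediate, and in the first of these clusters they ranged from 21.1% to 93.6%.

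A further 4 clusters were on other unplaced contigs. On JH996694.1, 10 of 27 cytosines between 47935 and 48053 were half-methylated, at 47.1%. On JH996441.1, 7 of 19 between 3882437 and 3882552 were, at 45.3%, and on JH996491.1, 7 of 12 between 826291 and 826366, at 45.2%. On JH997195.1, all 6 well-covered cytosines between 2631 and 2709 were half-methylated, at 40.9%. These were read at median depths of 1406 to 6589.

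The last of the 10 was the one least deeply read. It lay on chromosome 7 between 24835823 and 24835849, 4000 bp from LOC101994555, with 5 of 7 well-covered cytosines at a mean of 50.9% ± 12.3 (SD, n = 23 animals) and a median depth of 435 reads. Depth varied from 14 to 781 reads between animals. It was also the one in which the animals ranged most widely, from 23.3% to 73.5%. The lowest animal was “Attacker” animal 6. Counting error is large at depths as low as 14 reads, and its part in the width of this range was not tested.

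**Figure D3:**
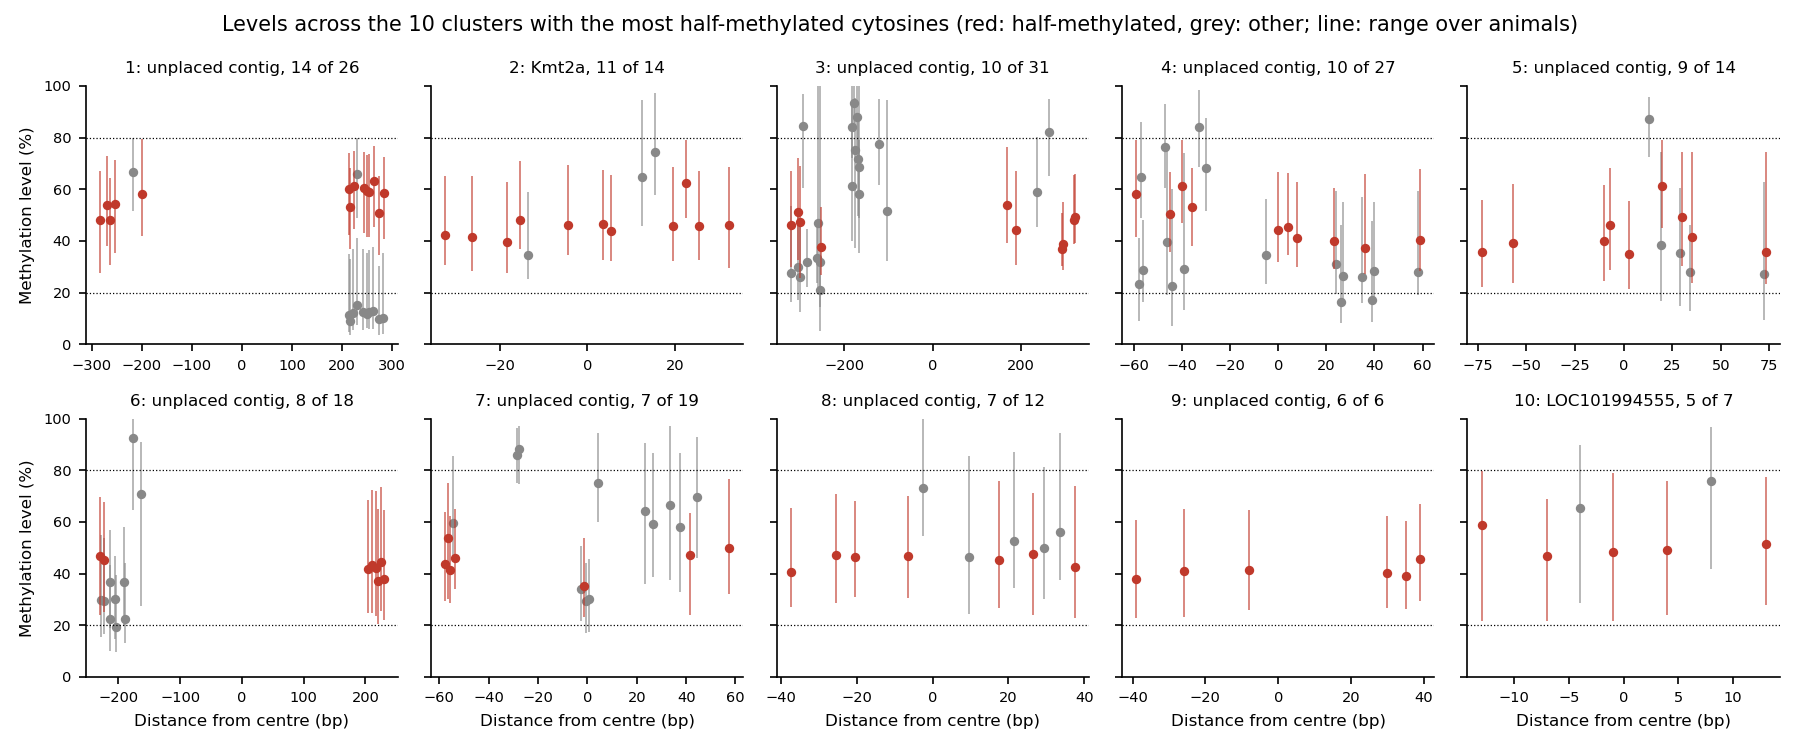
Methylation level (y axis, percent) of each well-covered cytosine across the 10 clusters with the most half-methylated cytosines, against the distance from the center of the cluster (x axis, bp). Points are means over the 23 animals and lines run from the lowest to the highest animal, for half-methylated (red) and other (grey) cytosines, with dotted lines at 20% and 80%. In most clusters grey points lie among the red ones, in the first cluster down to 8.91% and in the third up to 93.6%.

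In the 10 clusters, 87 other well-covered cytosines lay among the 87 half-methylated ones, of which 20 had a mean between 35% and 65%. On JH997195.1 there was none among the 6 members, whose means were between 37.8% and 45.7%. In 4 of the 10 clusters, namely in Kmt2a, on JH996491.1, on JH997195.1 and on chromosome 7, no well-covered cytosine other than members lay 1 bp from a member.

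The clusters moved together over the animals. Among the 45 pairs of the 10 clusters, Pearson's r of the cluster means over the 23 animals had a median of 0.85 and ranged from 0.29 to 0.95, although only the pairs on JH996631.1 share a sequence. The animals share their libraries across clusters, so these pairs are not independent. “Father” animal 5 was the highest animal in 7 clusters and “Attacker” animal 6 in the other 3. “Mother” voles had the smallest SD of the 4 groups in all 10 clusters.

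Whether members moved together depended on their depth. For neighboring members at most 10 bp apart, the median r over the 23 animals was 0.94 (64 pairs), and it was 0.80 at 11 to 100 bp (66 pairs), where reads can be shared. For members on different sequences that both had 1000 reads or more, the median r was still 0.72 (5861 pairs). For members on different sequences that both had fewer reads, it was 0.04 (62788 pairs). Counting error is larger with fewer reads, and its part in this difference was not tested.

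Strands could be compared at the CpGs whose 2 cytosines had no other listed cytosine directly beside them. Other CpGs could lie a few bp away, as in the largest cluster. Of 229 members in such pairs, the partner was also well covered in 84. The partner was within 35% to 65% in 55 of these and half-methylated in 6. Partner levels ranged from 9.88% to 80.9%, with quartiles of 32.7% and 49.3% and a median of 41.6%. The mean levels of both strands differed by a median of 6.40 points. Within single animals the strands were less alike. The median SD over animals was 12.5 points for one strand, 11.4 for the mean of both strands and 18.3 for the difference between strands. A difference between unrelated values spreads more than either value alone, and the part of counting error in these SDs was not tested.

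Genes known to be imprinted in the mouse were then examined. The list held 68 genes, of which 53 were in the annotation and 40 on placed chromosomes. Only 3 half-methylated cytosines (1.12% of the 268 placed ones) were inside or within 20000 bp of these genes, compared with 0.393% of all placed well-covered cytosines and 0.388% of those with an intermediate mean. All 3 were single cytosines and no cluster of 2 or more was found there. Of the members, 205 were on unplaced contigs, where nearness to listed genes could not be examined, and the half-methylated cytosines are named after the rule alone.

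The first was inside Plagl1, a zinc-finger transcription factor that is expressed from the paternal allele in the mouse. The cytosine, at position 13506130 of LG4, had a mean level of 55.5% ± 14.1 (SD, n = 23) at a median depth of 209 reads. Levels were 24.7% to 78.0% (median 58.7%) in “Attacker”, 32.6% to 77.8% (median 43.1%) in “Parental” and 43.7% to 67.5% (median 57.7%) in “Mother” voles, and 49.4%, 52.5%, 61.4%, 66.6% and 66.9% in the 5 “Father” voles. The groups overlapped, and single virgin males came close to both limits. Another cytosine near Plagl1, at position 13535385, had a mean of 57.3% and just missed the limits, with its highest animal at 80.2%.

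The second was inside Begain, whose protein binds a guanylate kinase at synapses, at position 44443372 of chromosome 1. It had a mean level of 40.6% ± 9.39 (SD, n = 23) at 271 reads. Levels were 33.2% to 56.5% in “Attacker”, 27.0% to 55.9% in “Parental”, 34.2% to 55.7% in “Father” and 29.2% to 42.8% in “Mother” voles. Another 6 cytosines near Begain had an intermediate mean but an animal outside the limits.

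The third was 5338 bp from Cdh15, which encodes M-cadherin, at position 30630480 of chromosome 4, with a mean of 50.002% ± 13.9 (SD, n = 23) at 330 reads. Its highest animal was a “Father” at 78.5% and its lowest a “Mother” at 24.9%. None of the 3 cytosines was called in any of the 4 comparisons described below.

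In all, 26 cytosines near genes of the list had an intermediate mean, and 23 of them had an animal outside the limits. Near Ddc, the gene of DOPA decarboxylase, 8 such cytosines had a median depth of 52 reads, and single animals ranged from 0% to 100%. Near Peg10 and Sgce, neighbors that are paternally expressed in the mouse, 1 cytosine had a mean of 49.7% with animals between 17.6% and 95%, at 230 reads. Near Kcnq1, which contains an imprinting control region in the mouse, 2 cytosines had means of 45.6% and 64.9%, with animals between 14.5% and 100%. Genes of the list on unplaced contigs could not be joined to the coordinates and were not examined.

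Lists of genes for cell types of the DG held almost no members within the same distance. None was near the placed genes for granule neurons, interneurons, astrocytes, oligodendrocytes or microglia, or near the 5 annotated clustered protocadherins. For endothelium, 1 was found, inside Flt1, a receptor for vascular endothelial growth factor, with a mean of 44.3% ± 13.4 (SD, n = 23) at 130 reads. The lists covered 14 well-covered cytosines for microglia and 372 for granule neurons, so that a count of 0 says little.

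Levels over all half-methylated cytosines were next compared between the groups. The mean over the 473 cytosines was 49.7% ± 4.22 in the 5 “Father” voles (mean ± SD), 47.1% ± 0.993 in the 6 “Mother” voles, 49.5% ± 5.19 in the 6 “Attacker” voles and 48.4% ± 3.12 in the 6 “Parental” voles. Single animals ranged from 43.6% to 56.8% in “Attacker”, from 45.0% to 53.3% in “Parental” and from 45.6% to 48.5% in “Mother” voles. The 5 “Father” voles were at 45.7%, 46.8%, 47.7%, 52.8% and 55.4%. The ranges of the groups overlapped. The difference was 1.12 points for “Attacker” minus “Parental”, -0.18 for “Attacker” minus “Father”, -1.30 for “Parental” minus “Father” and 2.53 for “Father” minus “Mother”. Each was smaller than the larger SD of the groups compared. With the reads of an animal pooled over the members, the same differences were 2.44, -1.92, -4.36 and 5.37 points. The SDs of the pooled levels were 8.06 points in “Attacker”, 8.01 in “Parental”, 10.7 in “Father” and 1.80 in “Mother” voles. Each pooled difference was thus also smaller than the larger pooled SD of the groups compared.

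Leaving out 1 animal turned the direction of 3 of these differences. Without “Attacker” animal 6, the “Attacker” minus “Parental” difference was -0.35 points. Without “Father” animal 5, that of “Parental” minus “Father” was 0.13 points. For “Attacker” minus “Father”, the difference became positive without “Attacker” animal 1, 2 or 3 or “Father” animal 4 or 5, and was between -1.65 and 1.25 points in all.

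The mean over the deeply read members differed more between animals than the mean over the others. At the 114 members with 1000 reads or more, animals were between 36.9% and 64.1%, with an SD of 9.03 points in “Attacker”, 7.29 in “Parental”, 10.6 in “Father” and 2.07 in “Mother” voles. At the other 359 members, animals were between 45.1% and 55.5%, with SDs of 4.07, 2.08, 2.28 and 0.983 points. At single members the order was the other way, with a median SD over the animals of 9.81 points at 1000 reads or more and 12.02 points at fewer reads, and the latter members hardly moved together, as given above. “Attacker” animal 6 had the highest level of all animals at 86 members and “Father” animal 5 at 83, while “Attacker” animal 1 and “Parental” animal 2 each had the lowest at 57.

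**Figure D4:**
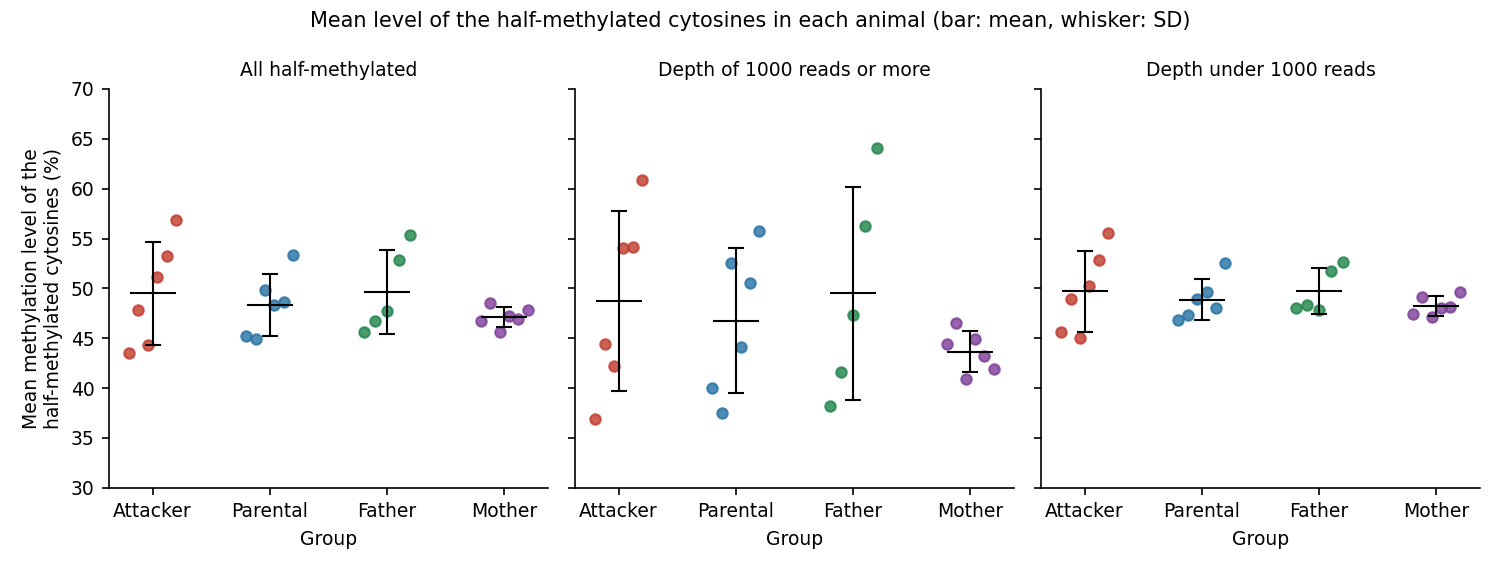
Mean methylation level (y axis, percent) of the half-methylated cytosines in each animal (points) of the 4 groups, over all of them, over the 114 with a depth of 1000 reads or more and over the 359 with fewer. Horizontal bars are group means and whiskers are SDs, and the points of the 4 groups overlap in each panel, with the smallest spread in “Mother” voles.

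The level of an animal at the half-methylated cytosines went with its level elsewhere. Over the 23 animals, Pearson's r between the mean over the members and the mean over all other well-covered cytosines off the X chromosome, which was 4.89% to 6.28%, was 0.88, and Spearman's rho was 0.82. Without the 2 animals farthest from the median of the other cytosines, r was 0.88. Within groups of 6, r was 0.97 in “Attacker”, 0.93 in “Parental” and -0.32 in “Mother” voles. With the number of calls of a library, r was -0.59 and rho -0.53 (r -0.56 without the 2 farthest libraries). Within groups of 6, it was -0.88 in “Attacker”, -0.22 in “Parental” and 0.39 in “Mother” voles. These are descriptions over animals that share the rule, and the part of library size and of sequence composition in them was not tested.

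**Figure D5:**
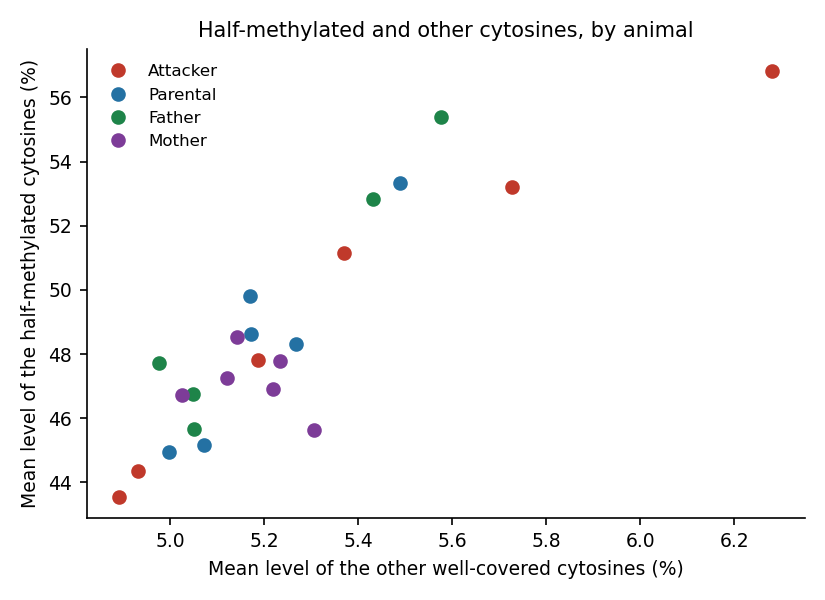
Mean level of the half-methylated cytosines (y axis, percent) against the mean level of all other well-covered cytosines off the X chromosome (x axis, percent) in each of the 23 animals, colored by group. The animals lie along a rising line from “Attacker” animal 1 at 43.6% to “Attacker” animal 6 at 56.8%, with the “Mother” voles in a narrow range.

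Single half-methylated cytosines were then tested in the 4 comparisons of the study. A Wald test of a beta-binomial model, as in DSS, was run at all 434480 well-covered cytosines, those of the X chromosome included. A differentially methylated cytosine (DMC) had an unadjusted p-value under 0.05 and a difference over 15 points. The limits on every animal keep large differences out of the list, so a low count of DMCs is partly set by the rule.

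Few half-methylated cytosines were DMCs. For “Attacker” vs “Parental” they were 6 of 473 (1.27%), where 0.664% of all tested cytosines were DMCs. They were 14 for “Attacker” vs “Father” (2.96%, beside 0.744% of all). They were 11 for “Parental” vs “Father” (2.33%, beside 0.677% of all) and 20 for “Father” vs “Mother” (4.23%, beside 0.912% of all). Most tested cytosines had levels near 0%. By limma, the share of members called in “Attacker” vs “Parental” was below that of all tested cytosines (2 of 473, beside 0.625% of all). The cytosines with an intermediate mean that failed the limits were DMCs in 8.01%, 8.38%, 8.50% and 9.87% of cases. The level was higher in the group named first at 2 of 6, 7 of 14, 4 of 11 and 14 of 20. The “Attacker” vs “Parental” count was 16 without “Attacker” animal 1, 10 without “Attacker” animal 3 and 12 without “Parental” animal 5. The “Parental” vs “Father” count was 7 without “Parental” animal 2, and the “Father” vs “Mother” count 13 without “Mother” animal 3.

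After Benjamini-Hochberg adjustment over all 434480 cytosines, the beta-binomial Wald test left 0 half-methylated DMCs in each comparison. Of all tested cytosines, 0.00368%, 0.00667%, 0.00898% and 0.0713% passed in the same order. By limma, adjusted in the same way, the count was also 0 in each comparison. An unadjusted Wald p-value under 0.05, whatever the difference, was reached by 10, 19, 17 and 21 members, where 0.915%, 0.966%, 0.951% and 1.27% of all tested cytosines reached it. The smallest adjusted p-values of members were 0.999, 0.311, 0.99956 and 0.487 by the Wald test.

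Over the 473 members, the median difference was 2.78 points in “Father” vs “Mother”, -1.80 in “Parental” vs “Father”, -0.760 in “Attacker” vs “Father” and 1.42 in “Attacker” vs “Parental”. Over all tested cytosines the medians were 0.0234, -0.0242, 0.00192 and 0.0261 points. Most of these had levels near 0%, so the sizes of the medians cannot be compared directly. In the same order, the group named first was higher at 65.5%, 40.4%, 47.1% and 61.9% of the members. It was higher at 70.5%, 29.7%, 55.2% and 71.2% of all tested cytosines. These comparisons share groups and are not independent of each other.

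The DMCs were mainly single cytosines of moderate depth. Of those in the 4 comparisons, 6 of 6, 13 of 14, 10 of 11 and 17 of 20 had no other member within 500 bp, and none had a depth of 1000 reads or more. Over all members, 60.7% stood alone and 24.1% had a depth of 1000 reads or more. Members with fewer reads also had the larger median SD over the animals (12.02 points, beside 9.81). The 1 DMC in a cluster of 5 or more was the last cytosine of the cluster on chromosome 7, at position 24835849, in “Father” vs “Mother”. No cytosine of the Kmt2a cluster was a DMC.

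Groups that did not overlap at all were rarer still. They were found at 5 members (1.06%) in “Father” vs “Mother” and at 3 (0.634%) in “Attacker” vs “Father”. “Attacker” vs “Parental” and “Parental” vs “Father” had 1 each (0.211% of the members). In this order, the shares of all tested cytosines without overlap were lower, at 0.131%, 0.0525%, 0.0244% and 0.0483%. Those of the intermediate cytosines that failed the limits were 0.479%, 0.435%, 0.163% and 0.348%.

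In “Attacker” vs “Parental”, the smallest p-value was at position 48206596 of chromosome 7, 73348 bp from Adamts2, a procollagen protease. “Attacker” voles were at 56.0% to 67.9% (median 63.9%) and “Parental” voles at 39.9% to 55.3% (median 47.7%), without overlap. The fitted difference was 14.8 points, just short of a DMC (Benjamini-Hochberg adjusted p = 0.999).

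In “Attacker” vs “Father”, the smallest p-value was at position 47957237 of chromosome 6, 17842 bp from Top2b, which encodes a DNA topoisomerase. The 5 “Father” voles were at 36.7%, 36.8%, 38.9%, 39.1% and 40%, and the “Attacker” voles at 52.5% to 80% (median 61.5%), all above them. The difference was 24.98 points (Benjamini-Hochberg adjusted p = 0.311) at a depth of 61 reads.

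In “Parental” vs “Father”, it was at position 736157 of JH996533.1. “Parental” voles were at 46.2% to 69.0% (median 58.6%) and the 5 “Father” voles at 36.5%, 39.6%, 40%, 43.6% and 44.9%, without overlap. The difference was 16.6 points (Benjamini-Hochberg adjusted p = 0.99956) at 137 reads.

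In “Father” vs “Mother”, it was at position 3390775 of JH996470.1. The 5 “Father” voles were at 47.3%, 65.9%, 67.9%, 70.5% and 75.7% and “Mother” voles at 30.1% to 51.8% (median 43.6%), so that 1 “Father” vole was within the range of the “Mother” voles. The difference was 22.8 points (Benjamini-Hochberg adjusted p = 0.487) at 154 reads.

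Some DMCs were inside genes, which are named after their values were seen. “Father” vs “Mother” had 9 of them, “Attacker” vs “Father” 4, “Parental” vs “Father” 2 and “Attacker” vs “Parental” 1. None of these had an adjusted p-value under 0.05, and each rests on a single cytosine. In the same order, 5 of 20, 4 of 14, 7 of 11 and 2 of 6 DMCs were on unplaced contigs, where genes have no coordinates. A gene span held 49.3% of all placed members and 65.8% of all placed well-covered cytosines, so the counts are not read as a result about genes.

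The cytosine at position 66241649 of chromosome 6, inside Cacna1d, the gene of a subunit of L-type calcium channels, was a DMC in both “Attacker” vs “Father” and “Father” vs “Mother”, which share the “Father” voles. The 5 “Father” voles were at 21.7%, 33.9%, 35.9%, 39.3% and 60.7%. “Attacker” voles were at 45.5% to 76.8% (median 61.8%) and “Mother” voles at 42.5% to 76.5% (median 68.7%). In both comparisons 1 “Father” vole was inside the range of the other group. Differences were 23.5 and -26.1 points (Benjamini-Hochberg adjusted p = 1 and 0.727).

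The DMC in “Attacker” vs “Parental” was inside Efna5, which encodes an ephrin ligand that guides axons. “Attacker” voles were at 30% to 69.1% (median 61.5%) and “Parental” voles at 24.5% to 62.8% (median 34.4%), with wide overlap. The difference was 18.4 points at 260 reads. The others in “Attacker” vs “Father” were lower in “Attacker” inside Nlrc5, a regulator of MHC class I genes (46.1% ± 22.4, n = 6, and 68.6% ± 7.85, n = 5, mean ± SD), and Mrap2, a melanocortin receptor accessory protein (48.0% ± 11.1 and 65.4% ± 9.05). The remaining one, inside Svep1, was higher in “Attacker” (64.3% ± 13.4 and 44.4% ± 14.5).

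In “Parental” vs “Father”, the cytosine inside Acvr1, a receptor for bone morphogenetic proteins, was lower in “Parental” voles (41.8% ± 18.6, n = 6, and 59.6% ± 4.43, n = 5). That inside Slc5a10, a sugar transporter, was higher (60.03% ± 12.01 and 43.0% ± 17.3).

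In “Father” vs “Mother”, 5 of the 9 were higher in “Father” voles. They were inside Sp8, a zinc-finger transcription factor (62.1% ± 10.2, n = 5, and 41.0% ± 11.96, n = 6), Slc1a1, a neuronal glutamate transporter (62.3% ± 6.51 and 45.5% ± 20.01), Wscd2, Tmcc3 and Epb41l4b. The other 4 were higher in “Mother” voles and lay inside Srpx, Pknox2, Cuedc1 and Cacna1d. At Srpx the 5 “Father” voles were at 28.6%, 30.6%, 37.7%, 38.5% and 43.5% and the “Mother” voles at 46.9% to 71.4% (median 51.9%), without overlap. At Tmcc3 “Father” voles were at 43.9% to 60.6% and “Mother” voles at 23.9% to 40.2%, also without overlap.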

How the data were processed

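RRBS reads were trimmed (Trim Galore) and aligned with Bismark to MicOch1.0 by the authors, who deposited raw counts of covering and of methylated reads for each CpG cytosine in each animal. Reads of one fragment carry no molecular identifier, so copies made by PCR could not be told from separate molecules. Values after ± are SDs over animals, or over cytosines where stated. Levels were computed from these counts. Members, gene lists and the rule for named items were chosen with earlier results of these data known. Named items are the 10 clusters with the most members, clusters of 3 or more near listed genes, the smallest p-value per comparison and the members at the limits.

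The 2-group Wald test of DSS was re-implemented, with 0.5 added to the methylated and 1 to all reads, and tested on simulated data. Read weights were scaled by their mean over all tested cytosines. Gene spans came from a RefSeq table of MicOch1.0, which gives no exons or strand and does not place genes on unplaced contigs. The study's RNA-seq libraries were not analysed here. Alternatives covered the limits, strands, gaps, windows, tests and each animal left out. Those restricted to members under 1000 reads, and with weights scaled within each cytosine, were added after the data were seen. Python 3.11.15, numpy 2.4.6, scipy 1.17.1, R 4.3.3 and limma 3.58.1 were used.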

Additional observations from a re-analysis of the deposited data

Results flagged for a closer look

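Of 44 sets of values tested, 4 groups at the mean of all half-methylated cytosines and at each of the 10 named clusters, 1 held an animal far from the others of its group, where chance gives about 1 in 20. In the cluster on JH997195.1 between 2631 and 2709, “Mother” animal 2 was at 44.6%, while the other “Mother” voles were between 31.0% and 35.6%. The gap made up 0.664 of the range of the group, above the critical value of 0.625 for 6 animals.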

How the results depend on the processing

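The number of half-methylated cytosines was 473 at a minimum of 5 reads, 459 at 20 reads, 384 with a mean between 40% and 60% and 509 between 30% and 70%. It was 671 with both strands merged at CpGs that had no other listed cytosine directly beside them. It was 477 to 538 with 1 animal left out, which kept at least 98.5% of the 473. Clusters of 5 or more numbered 10 to 14 with 1 animal left out, with 17.1% to 21.7% of the members, and 10 with shorter or longer gaps (up to 100 or 2000 bp). With members under 1000 reads only, 1 such cluster held 1.393% of them. The share of all members near listed imprinted genes was 0.634%, 0.423% within the gene spans and 0.634% within 100000 bp.

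Counts of DMCs among the members, given first for “Attacker” vs “Parental”, then for “Attacker” vs “Father”, for “Parental” vs “Father” and last for “Father” vs “Mother”, moved with the test. They were 6, 14, 11 and 20 as reported, and 10, 19, 17 and 21 without a minimum difference. With the Benjamini-Hochberg adjusted Wald p-value they were 0 in all, also in the fit of every cytosine with a read in each group and with weights scaled within each cytosine. In the fit of every cytosine they were 0, 3, 0 and 0 unadjusted. That fit scales the read weights over other cytosines and estimates the dispersion prior on others too. With weights scaled within each cytosine they were 6, 15, 10 and 19, beside 0.696%, 0.778%, 0.701% and 0.939% of all tested cytosines. Limma on log2 ratios of methylated to unmethylated reads called 2, 9, 5 and 12 without a replicate block, and 2, 9, 5 and 14 with a pseudocount of 1. Of all tested cytosines, the first fit called 0.625%, 0.701%, 0.622% and 0.832%. The fit with a pseudocount of 1 called 0.699%, 0.778%, 0.677% and 0.894% of them. Limma with the replicate number as a replicate block called 1, 11, 3 and 8, beside 0.751%, 0.795%, 0.763% and 0.9998% of all tested cytosines. In “Attacker” vs “Parental”, the share of members called was thus below that of all tested cytosines in each limma fit. In “Parental” vs “Father” it was below with the replicate block. The labels give same-numbered animals of different groups nothing in common but a number. Deviations of same-numbered animals had correlations between -0.0193 and 0.0521 over all tested cytosines and between -0.103 and 0.221 over the members. For animals with different numbers the ranges were -0.0549 to 0.0526 and -0.269 to 0.219. Most tested cytosines had levels near 0%, and whether the number goes with library size was not tested. With 1 animal left out, counts were 4 to 16, 12 to 20, 7 to 16 and 13 to 26. The cause of these changes was not tested.

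Mean differences over the members were 1.12, -0.18, -1.30 and 2.53 points as reported. With the reads of an animal pooled over the members, which weights the deeply read ones, they were 2.44, -1.92, -4.36 and 5.37 points. The pooled levels also had larger SDs in every group, as given above. With 1 animal left out they were between -0.35 and 2.31, -1.65 and 1.25, -2.31 and 0.13, and 1.10 and 3.53 points. When every cluster counted once, the mean differences were 0.84, 0.05, -0.79 and 1.44 points. At members under 1000 reads alone they were 0.84, -0.006, -0.85 and 1.48 points. No alternative moved a difference by more than the larger SD of the groups compared. For “Father” vs “Mother”, however, some changes exceeded the SD of “Mother” voles (0.993). They came with pooled reads, with every cluster counted once, with members under 1000 reads and without “Father” animal 1 or 5.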
